A study of Mus musculus with 11 samples.

Results

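The data described here are 7521 sites of histone H3 trimethylated at lysine 4 (H3K4me3) that were marked in quiescent and activated muscle stem cells of young mice and in quiescent muscle stem cells of old mice, and that carried histone H3 trimethylated at lysine 27 (H3K27me3) in none of these states. They were chosen from the 24701 H3K4me3 peaks of young quiescent cells, of which they made up 30.4%. A site was taken when its peak had a score of at least 1000 in young quiescent cells, was at most 3000 bp wide, shared at least 1 bp with an H3K4me3 peak of the young activated and of the old quiescent cells, and shared no base with an H3K27me3 peak of any of the 3 states. The score, the width in young quiescent cells, the presence of H3K4me3 and the absence of H3K27me3 were therefore used to select the sites and are given as description. Widths in activated and in old cells set against each other, the direction in which a peak extended, and histone H3 trimethylated at lysine 36 (H3K36me3) did not enter the selection.

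The cells were satellite cells (SCs), the stem cells of skeletal muscle, sorted from hindlimb muscles of male C57BL/6 mice as VCAM+/CD31-/CD45-/Sca1- cells. Young mice were 2 to 3 months old and gave quiescent SCs (QSCs). Per the labels, young activated SCs (ASCs) were sorted QSCs kept for 3 days on an ECM-coated surface in F10 medium with horse serum, whereas the paper speaks of SCs activated in the animal, so the ASC state is taken here as the labels give it. Old mice, 22 to 24 months of age, gave QSCs with no ASC counterpart. ChIP-seq libraries were made for H3K4me3 and H3K27me3 in all 3 states and for H3K36me3 in young QSCs and young ASCs, and no H3K36me3 list of old QSCs was analysed here. Sorted cells were frozen and collected until enough were in hand, so a library may hold cells of several sorts. With 1 library for each state and mark there were no replicates. No test between states was made, and differences are given as sizes with no p-value.

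H3K4me3 is laid down around the start sites of active and poised genes, largely by the SET1 and MLL families of methyltransferases, and at many constantly active genes it forms a compact peak over the CpG-rich promoter. H3K36me3 is deposited by SETD2, which travels with elongating RNA polymerase II, so the mark covers the bodies of transcribed genes and is low at their start. H3K27me3 is the product of Polycomb repressive complex 2 and marks silenced or poised genes, where it can share a promoter with H3K4me3.

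Whether these sites are promoters could not be checked. The peak positions are those of the mouse build mm9, no genome or annotation of that build was used here, and positions were not converted between builds. The sites are therefore called sites and named by their mm9 position, no gene or sequence is given, and the identity of the sorted cells could not be checked against marker genes. Across the 8 ChIP libraries the lists held 11658 to 42880 peaks. Scores began at 50, which stands for a p-value of 1e-05 in the peak caller, and many peaks were tied at 3100. The number of reads behind a list is unknown. Shares of sites are given with 95% Wilson intervals, which cover counting error only and treat neighbouring sites as independent.

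Most peaks that were left out fell below the score limit, which left 10534 of the 24701 peaks. Of these, 10519 also overlapped an ASC peak and 10515 an old QSC peak as well, so almost every strong H3K4me3 site of young QSCs was marked in all 3 states. Removing sites with H3K27me3 in young QSCs took 1201 of them, in young ASCs 864 more and in old QSCs 198 more. The width limit then took 731 of the remaining 8252. Another 3 sets that failed the rule at 1 point were kept for comparison. They were 4439 sites with a score under 1000, 731 sites wider than 3000 bp and 1964 sites with H3K27me3 in at least 1 state, each meeting every other condition.

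The sites next to each limit of the rule were as follows. The member with the lowest score, chr2:31113912-31115418, scored 1000.72 and was 1507 bp wide in young QSCs, 1635 bp in young ASCs and 1673 bp in old QSCs. The next peak below the limit, chr1:135556676-135558366, scored 999.46 and was 1691, 2157 and 1955 bp wide in the same order. The widest members both measured 2996 bp in young QSCs. One, chr17:87680773-87683768, was 3116 bp wide in young ASCs and 2657 bp in old QSCs, and the other, chr11:76248296-76251291, 985 and 2935 bp. The narrowest excluded peak, chr8:3514808-3517809, measured 3002, 2679 and 2874 bp.

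H3K4me3 peaks at the constitutive sites were widest in ASCs. In young QSCs the 7521 sites ranged from 616 to 2996 bp with a median of 1824 bp. At 7103 of them each of the 3 lists held exactly 1 peak with no partner elsewhere, so that widths could be set side by side. There the median width was 1812 bp in young QSCs (quartiles 1537 and 2163 bp), 1916 bp in old QSCs (1637 and 2256 bp) and 2248 bp in young ASCs (1825 and 2769 bp). The distributions overlapped broadly, and the upper tail was longest in ASCs, where 1 site in 20 was wider than 3742 bp and the widest reached 11921 bp.

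**Figure D1:**
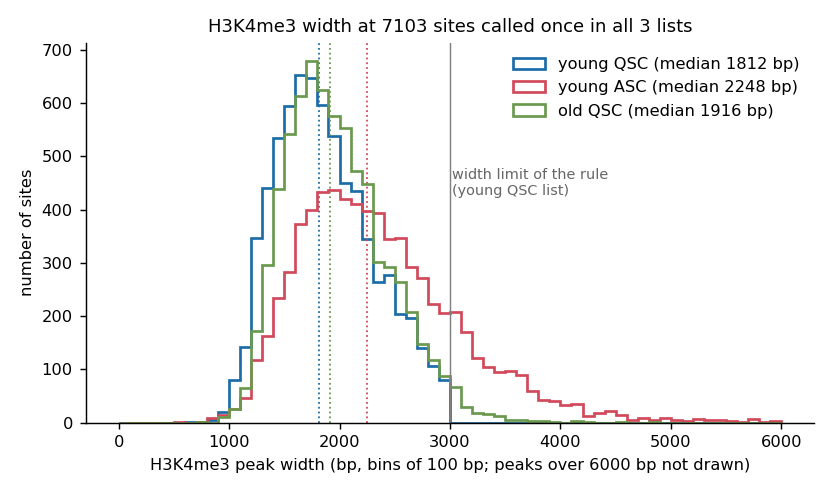
Histogram of H3K4me3 peak width (bp, bins of 100 bp) at the 7103 constitutive sites called once in all 3 lists, with the number of sites on the y axis, 1 line for each state and dotted lines at the medians of 1812 bp (young QSC), 1916 bp (old QSC) and 2248 bp (young ASC). The lines of young and old QSCs lie close together, the line of young ASCs reaches past 3000 bp, and the young QSC line stops there because the rule does.

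Site by site, the peak was wider in ASCs than in young QSCs at 6082 of 7163 sites called once in both lists, 84.9% (84.1% to 85.7%). Over all 17567 young QSC peaks called once in both lists, this share was 61.6%. The median difference over the 7103 sites was 400 bp, and the median ratio over the 7163 sites was 1.23, with quartiles of 1.07 and 1.42. At least 1.5-fold widening was seen at 1328 sites, 18.5% (17.7% to 19.5%), beside 13.5% of all 17567 young QSC peaks called once in both lists. At least 1.5-fold narrowing was seen at 27 sites, 0.377%, beside 6.69% of all such peaks. Because the width limit was set on the young QSC width, nothing is read from these shares.

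Old QSCs stood close to young QSCs. The peak was wider in old QSCs at 5212 of 7321 sites, 71.2% (70.1% to 72.2%), but by a median of 103 bp and a median ratio of 1.06. Over all young QSC peaks called once in both lists, the share was 66.1% and the median ratio 1.05, both near these values. Only 85 sites, 1.16%, were at least 1.5-fold wider in old QSCs, beside 4.18% of all young QSC peaks called once in both lists, and 19 sites, 0.260%, were at least 1.5-fold narrower, beside 2.05%. These shares too rest on the width that the rule used.

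The comparison of old QSCs with young ASCs uses neither the width nor the score that chose the sites, though both decided which sites were compared. Over all young QSC peaks called once in all 3 lists, the peak was narrower in old QSCs at 55.9%, with a median ratio of 0.961. At the constitutive sites the peak was narrower in old QSCs at 5566 of 7103 sites, 78.4% (77.4% to 79.3%), with a median ratio of 0.863 and a median difference of -296 bp. It was at least 1.5-fold narrower at 845 sites, 11.9% (11.2% to 12.7%), beside 9.73% of all young QSC peaks called once in all 3 lists, and at least 1.5-fold wider at 47 sites, 0.662%, beside 7.27%. The share of narrower sites lay near that of all peaks, whereas the share of wider sites lay well below it. All peaks include those with scores under 1000, where the share of wider sites was 12.9%. It was 2.13% at sites wider than 3000 bp and 4.30% at sites with H3K27me3.

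The 3 states could be put in order at each site. The rule limited the young QSC width alone, so the orders, and the correlations with young QSCs, are description only. Neither is given over all peaks. The most frequent order, young QSC narrowest, then old QSC, then ASC, held at 3839 of 7103 sites, 54.0%. At another 1494 sites, 21.0%, old QSCs were narrowest and ASCs widest. ASCs were narrowest at 536 sites with old QSCs widest and at 283 sites with young QSCs widest. Sites that were wide in one state tended to be wide in the others. Across sites, which are not replicates and share the libraries and the peak caller, Spearman's rho of the widths was 0.857 between young and old QSCs, 0.709 between ASCs and old QSCs and 0.690 between young QSCs and ASCs (n = 7103).

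The narrower a site was in young QSCs, the larger was its ratio in the other states, which is partly built in because the same young width divides both ratios. The ASC over QSC ratio had a median of 1.26 at the 1549 once-called sites of over 1000 to 1500 bp and 1.17 at the 727 of over 2500 to 3000 bp. The old QSC over young QSC ratio fell over the same classes from 1.12 to 1.01. Old QSC over ASC, which the young width does not enter, was 0.892 and 0.859 in these classes and showed little dependence on the width.

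The sites that widened most in ASCs changed less in old QSCs, though more than the other sites. The 1320 sites at least 1.5-fold wider in ASCs, among those called once everywhere, had median widths of 1755 bp in young QSCs, 3029 bp in ASCs and 1956 bp in old QSCs. Their old QSC over young QSC ratio had a median of 1.11 against 1.06 at the 4731 sites that widened less and 1.00 at the 1052 sites that narrowed. These ratios share the young QSC width. Of the 1320 sites, 49 (3.71%) were also at least 1.5-fold wider in old QSCs, against 27 (0.571%) of the 4731 and 5 (0.475%) of the 1052.

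The compared sets, measured in the same libraries, gave other ratios. ASC over QSC had a median of 1.04 at sites with a score under 1000, 1.08 at sites wider than 3000 bp and 0.946 at sites with H3K27me3, where the ASC peak was the narrower one at 65.0% (62.8% to 67.2%) of 1870 sites. Old QSC over ASC was 0.863 at the constitutive sites, 0.993, 0.911 and 1.10 in the compared sets in the same order. Old QSC over young QSC lay between 1.00 and 1.06 in all 4 sets. The H3K27me3 set had the same limits of score and width, and its median width in young QSCs was 1908 bp against 1824 bp. Its sites were chosen by the presence of a mark that in part appeared in ASCs, and no test of the difference between the sets was made.

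**Figure D2:**
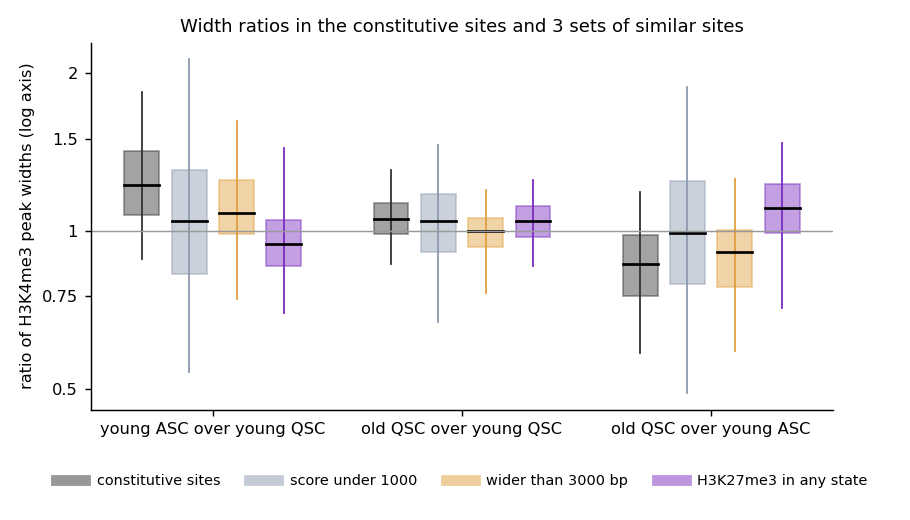
Ratios of H3K4me3 peak widths (log axis) for 3 pairs of states in the constitutive sites and in the 3 compared sets, with the median as a black line, the quartiles as a box and the 5th to 95th percentile as a line. In ASC over QSC the constitutive sites have a median of 1.23 and the sites with H3K27me3 one of 0.946, while old QSC over young QSC lies near 1 in all sets.

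Peak scores differed between the lists as well. In young QSCs 31.7% of the constitutive sites were at or above the score of 3100, in old QSCs 53.2% of the once-called counterparts and in ASCs 94.4%. Over all peaks of each H3K4me3 list the shares were 14.3%, 23.3% and 31.6%, in the same order of states. The young QSC score chose the sites, so the shares are description only. Only 37 of 7163 ASC counterparts and 231 of 7321 old QSC counterparts scored under 1000. Both measures depend on how deeply the ChIP and input libraries were sequenced, which is unknown, so that a wider mark and a more deeply sequenced library cannot be told apart from the medians alone. A second way in which lists can differ is in splitting or joining peaks. Of the 7521 sites, 286 were joined with a neighbouring young QSC peak in the ASC list and 168 in the old QSC list, 83 and 43 were split, and 11 were both in each list. With the widths of all counterparts summed, the median ASC over QSC ratio was 1.23 over all 7521 sites.

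The extremes show how far single sites departed from these medians. The largest widening in ASCs was at chr6:97160505-97161793, which was 1289 bp wide in young QSCs, 8502 bp in young ASCs and 1788 bp in old QSCs. Most of the gain lay on one side, where the edge moved out by 6116 bp against 1097 bp on the other. At chr8:114254818-114256763 the widths were 1946, 11921 and 1895 bp, with both edges moved out, by 4755 and 5220 bp. At chr9:57436692-57438079 they were 1388, 6031 and 1572 bp, and 4302 bp of the gain lay to the right, with H3K36me3 in both lists on both sides of the site. The old QSC over young QSC ratios of these sites were 1.39, 0.974 and 1.13, the first of them above the 95th percentile of all constitutive sites (1.31).

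The strongest narrowing in ASCs took place at chr2:84613020-84615510, which was 2491 bp wide in young QSCs, 507 bp in ASCs and 3348 bp in old QSCs. The loss was nearly all at the left edge, which moved in by 1831 bp. At chr11:76248296-76251291 the widths were 2996, 985 and 2935 bp, and at chr9:111341313-111343982 they were 2670, 920 and 3411 bp, in each case with 1 edge accounting for most of the loss. In old QSCs the largest widening was at chr17:3083524-3085195, with 1672 bp in young QSCs, 1881 bp in ASCs and 6456 bp in old QSCs, and 4704 bp of the gain on the left. The other sites of largest widening in old QSCs, chr2:60718598-60720211 (1614, 4912 and 4162 bp) and chr2:50151580-50152496 (917, 2534 and 1957 bp), were widened in ASCs as well. The strongest narrowing in old QSCs was at chr19:4148069-4150919, with 2851, 1958 and 1485 bp, where the right edge moved in by 1461 bp in old QSCs and by 923 bp in ASCs.

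An H3K36me3 peak seldom overlapped a constitutive site and more often lay beside it. An H3K36me3 peak of young QSCs overlapped 284 of the 7521 sites, 3.78% (3.37% to 4.23%), beside 12.9% of all young QSC H3K4me3 peaks. An H3K36me3 peak of ASCs overlapped 230 sites, 3.06% (2.69% to 3.47%), beside 6.76% of all peaks. The order of these 2 shares turned to 1.20% in QSCs and 2.23% in ASCs when only H3K36me3 peaks with a score of at least 100 were used, so no order between the states is given for the overlap. All peaks include wide ones that the rule removed. Sites wider than 3000 bp were overlapped at 24.8% in QSCs and 21.8% in ASCs. The shares were 5.47% and 4.91% at scores under 1000, and 11.6% and 2.14% at sites with H3K27me3.

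Within 5 kb of the site, H3K36me3 was more frequent in the ASC list. In young QSCs 1944 sites, 25.8% (24.9% to 26.8%), had an H3K36me3 peak within 5 kb or overlapping, beside 27.6% of all young QSC peaks. In ASCs it was 3326 sites, 44.2% (43.1% to 45.3%), beside 28.4% of all peaks. The first share lay near that of all peaks and the second well above it. The ratio of the ASC to the QSC share was 1.71 at the constitutive sites, 1.03 over all peaks and 0.547 at the sites with H3K27me3, where the share was 20.2% in QSCs and 11.0% (9.74% to 12.5%) in ASCs. At sites with a score under 1000 the shares were 21.1% and 26.4%, and at sites wider than 3000 bp 47.2% and 52.5%.

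The ASC list of H3K36me3 was the longer one, with 42880 peaks covering 70.0 Mb against 20399 peaks covering 29.1 Mb in QSCs. With the ASC list limited to its 20399 highest scores, the share at the constitutive sites was 31.0% (30.0% to 32.1%) in ASCs against 25.8% in QSCs. On this footing the share over all peaks was 20.1% in ASCs against 27.6% in QSCs, and that of the H3K27me3 set 7.48% against 20.2%. The share at constitutive sites was thus still the higher one in ASCs with lists of equal length, while that of all 3 compared sets was lower there (17.5% against 21.1% at low scores and 41.5% against 47.2% at wide sites).

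The distance to the nearest H3K36me3 peak had a median of 16.6 kb in the QSC list and 6.43 kb in the ASC list, and 54.2% and 75.1% of the sites had one within 20 kb, beside 48.8% and 50.8% of all young QSC H3K4me3 peaks. Coverage rose with distance from the site in each step of the first 5 kb, and by less and not steadily from there to 10 kb. H3K36me3 peaks covered 1.60% of the bases inside the constitutive peaks in QSCs and 0.908% in ASCs. In the first kb outside the peak they covered 2.06% and 3.92%, between 4 and 5 kb 6.20% and 13.9%, and between 9 and 10 kb 6.61% and 15.2%, the highest values in the 20 kb examined on either side. Inside the peaks of the H3K27me3 set, H3K36me3 covered 6.35% of the bases in QSCs and 1.28% in ASCs. The values were 9.17% and 7.33% at sites wider than 3000 bp and 4.42% and 3.58% at scores under 1000. Over all young QSC H3K4me3 peaks, coverage was 8.43% and 4.09% inside the peak. It was 4.17% and 4.54% in the first kb outside and 4.99% and 9.21% between 9 and 10 kb.

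**Figure D3:**
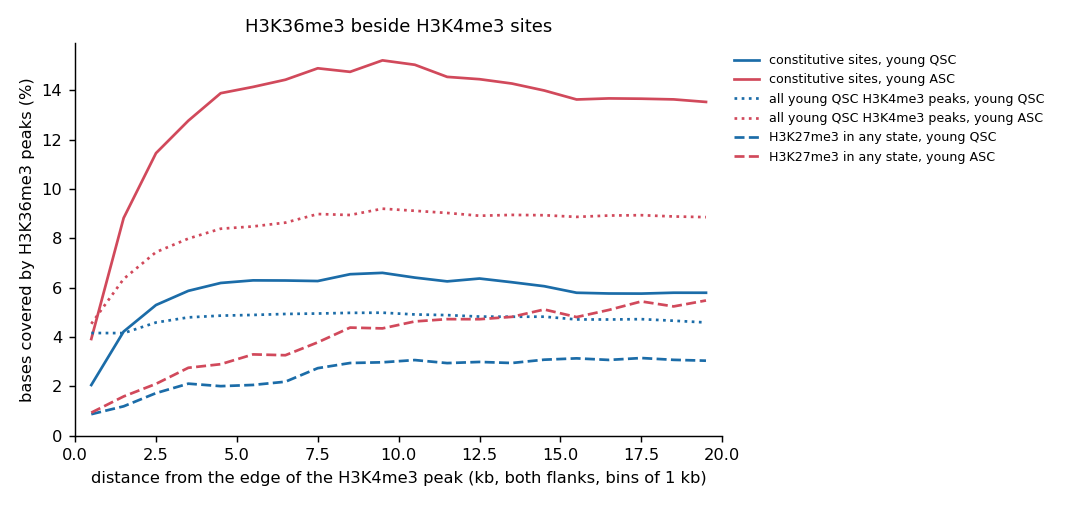
Share of bases (%) covered by H3K36me3 peaks against the distance (kb, bins of 1 kb, both flanks together) from the edge of the H3K4me3 peak, for the constitutive sites, all young QSC H3K4me3 peaks and the sites with H3K27me3, in young QSCs and young ASCs. At the constitutive sites the ASC line climbs from 3.92% in the first kb to 15.2% between 9 and 10 kb and the QSC line from 2.06% to 6.61%, with the ASC library of H3K36me3 covering 70.0 Mb of the genome and the QSC library 29.1 Mb.

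By the presence of H3K36me3 within 5 kb, 1621 sites (21.6%) had it in both states, 1705 (22.7%) in ASCs only, 323 (4.29%) in young QSCs only and 3872 (51.5%) in neither. Over all young QSC H3K4me3 peaks these shares were 17.2%, 11.3%, 10.4% and 61.1%. These classes had like widths in young QSCs, with medians from 1771 to 1858 bp. In ASCs the median width was 2347 bp where H3K36me3 was near in ASCs only, 2275 bp where it was near in both, 2214 bp where it was near in neither and 1957 bp where it was near in QSCs only. The ASC over QSC ratio was accordingly 1.31, 1.22, 1.20 and 1.11. Over all young QSC H3K4me3 peaks it was 1.29, 1.14, 1.05 and 0.959 in the same classes.

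At least 1.5-fold widening was seen at 26.9% (24.8% to 29.1%) of the sites with H3K36me3 in ASCs only and at 7.53% (5.03% to 11.1%) of those with it in QSCs only. Both values come from the same pair of H3K4me3 libraries, and H3K36me3 had no part in choosing the sites. The same order of the 2 classes was present among all young QSC peaks, at 26.1% and 5.63%. Old QSC over young QSC moved little, from 1.03 to 1.07 across the 4 classes. Read the other way, 53.0% (50.3% to 55.7%) of the 1320 sites that widened at least 1.5-fold in ASCs had H3K36me3 within 5 kb in ASCs, against 44.3% (42.9% to 45.8%) of the 4731 that widened less and 31.5% (28.7% to 34.3%) of the 1052 that narrowed. For H3K36me3 of young QSCs the order was the reverse, at 283 of 1320, 1184 of 4731 and 323 of 1052 sites, with shares of 21.4% (19.3% to 23.7%) in the first class and 30.7% (28.0% to 33.6%) in the last. Shares by widening class are not given over all young QSC peaks, so they cannot be called particular to the members.

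**Figure D4:**
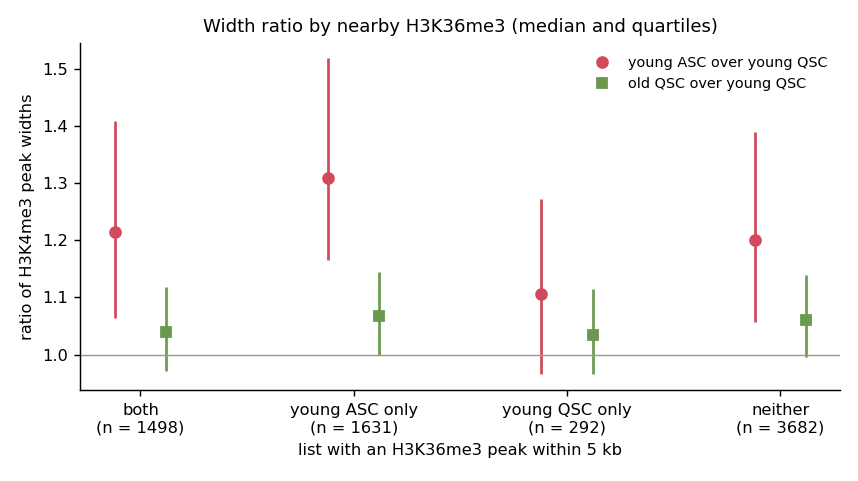
Ratio of H3K4me3 peak widths at the constitutive sites (median as a point, quartiles as a line), with sites grouped on the x axis by the list that held an H3K36me3 peak within 5 kb, for young ASC over young QSC (circles) and old QSC over young QSC (squares). ASC over QSC is 1.31 where H3K36me3 is near in ASCs only and 1.11 where it is near in QSCs only, and old QSC over young QSC stays between 1.03 and 1.07.

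The side on which a peak grew could be set against the side of H3K36me3. Within 20 kb, 2609 constitutive sites had H3K36me3 of young QSCs on 1 side only, 1320 of them to the left and 1289 to the right, and 1185 had it on both sides. The side was much the same in both states, since of 1701 sites with H3K36me3 on 1 side only in each list, 1613 (94.8%) had it on the same side, much as over all young QSC H3K4me3 peaks (94.6%). This permits the movement of both peak edges to be compared within each site, with the opposite edge serving as the reference from the same peak and the same libraries.

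In ASCs the edge facing H3K36me3 moved out by a median of 236 bp and the opposite edge by 76 bp, at 2483 sites. The facing edge moved out farther at 1636 sites, 65.9% (64.0% to 67.7%), beside 59.8% of all young QSC H3K4me3 peaks with the mark on 1 side. It moved out by at least 500 bp at 26.3% (24.6% to 28.1%) of the sites and the opposite edge at 10.5% (9.33% to 11.7%), beside 18.3% and 8.34% of all such peaks. At sites whose nearest H3K36me3 was within 2 kb the facing and the opposite edge moved by medians of 230.5 and 30.5 bp, and at a distance of 10 to 20 kb by 211 and 104 bp. The facing edge thus moved out farther in each of the 4 classes of distance, at 62.5% to 70.5% of sites.

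In old QSCs the medians of both edges were close. The facing edge moved out by a median of 49 bp and the opposite edge by 51 bp at 2549 sites, and the facing edge went farther at 49.4% (47.5% to 51.4%), beside 49.9% of all peaks. Its interval covers counting error only and is no test against 50%. A movement of at least 500 bp was rare, at 2.79% (2.21% to 3.50%) of the facing and 0.863% (0.571% to 1.30%) of the opposite edges, beside 2.55% and 1.27% of all such peaks. The H3K36me3 that gives the side here is that of young QSCs, as there was no list for old QSCs.

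**Figure D5:**
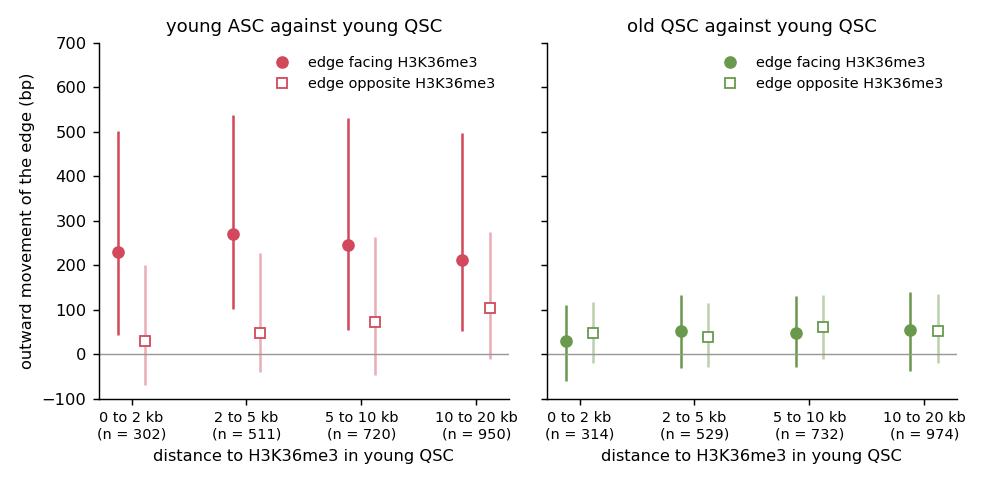
Outward movement (bp) of the H3K4me3 peak edge facing H3K36me3 (filled) and of the opposite edge (open) at constitutive sites with H3K36me3 on 1 side within 20 kb, for young ASCs (left) and old QSCs (right) against young QSCs, by distance to the H3K36me3 of young QSCs. Points are medians and lines join the quartiles, and the facing edge lies above the opposite one in every class in ASCs, by 230.5 against 30.5 bp within 2 kb, while in old QSCs the medians of both edges lie between 30 and 61 bp.

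With the side taken from the ASC list of H3K36me3, a choice made after the data had been seen, the facing edge moved out farther in ASCs at 77.5% (76.1% to 78.9%) of 3399 sites, by a median of 321 bp against 61 bp, beside 69.0% of all peaks. In old QSCs it did so at 52.3% (50.6% to 53.9%) of 3481 sites, by 57 against 48 bp, beside 51.2% of all peaks. In the compared sets with the QSC list giving the side, the share in ASCs was 53.6% (50.5% to 56.6%) at low scores, 67.8% (59.8% to 74.9%) at wide sites and 54.1% (49.3% to 58.8%) at sites with H3K27me3. In that last set both edges moved in, by medians of 40 and 60 bp.

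Single sites illustrate the range of H3K36me3. The highest coverage in QSCs was at chr15:75898976-75901179, with 28.1 kb of the mark in QSCs and 28.2 kb in ASCs within 20 kb of the site, and H3K4me3 widths of 2204, 2148 and 1894 bp in young QSCs, ASCs and old QSCs. The largest rise was at chr2:31829246-31831107, from 1.20 kb in QSCs to 27.6 kb in ASCs, with widths of 1862, 2309 and 2095 bp. At chr8:113369396-113371701 coverage went from 0 to 24.5 kb and the widths were 2306, 3863 and 2477 bp. At chr17:46338776-46340695 it went from 1.53 to 23.9 kb, with widths of 1920, 3633 and 2214 bp. All 3 sites of largest rise were wider in ASCs than in either QSC list.

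The largest fall in H3K36me3 was at chr5:37220583-37222333, from 13.5 kb in QSCs to 0 in ASCs, with H3K4me3 widths of 1751 bp in young QSCs, 1590 bp in ASCs and 1832 bp in old QSCs. At chr15:76124416-76126173 coverage fell from 9.56 kb to 0, and the widths were 1758, 1686 and 1696 bp. At chr17:25980405-25981722 it fell from 23.0 to 13.5 kb, and the site was nevertheless wider in ASCs, at 1318, 1880 and 1700 bp. A coverage of 0 means that the list held no peak there, not that the mark was absent.

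H3K27me3, which none of the sites carried, was still near some of them. A peak lay within 5 kb of 423 sites in young QSCs, 686 in ASCs and 328 in old QSCs, and the nearest began directly at the end of a member with no shared base. The 3 counts are 5.62%, 9.12% and 4.36% of the sites. In the same order, sites with scores under 1000 had 4.42%, 10.1% and 5.43%. Sites wider than 3000 bp had 3.28%, 8.48% and 3.28%. In all, 993 constitutive sites (13.2%) had H3K27me3 within 5 kb in at least 1 state and 84 in all 3. ASC over QSC had a median of 1.18 at the 993 sites and 1.23 at the 6528 others. H3K36me3 of young QSCs was within 5 kb of 36.2% (33.2% to 39.2%) of the former and 24.3% (23.3% to 25.3%) of the latter, and that of ASCs near 50.9% and 43.2%. The split by H3K27me3 within 5 kb in any state is given for the constitutive sites alone. Its values therefore cannot be called particular to them.

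The constitutive sites were spread over the autosomes. They made up 26.9% of the young QSC H3K4me3 peaks of chromosome 13, the lowest autosomal share, and 35.9% of those of chromosome 16, the highest. The median ASC over QSC ratio on the autosomes lay between 1.20 on chromosome 15 and 1.28 on chromosome 3, and it was 1.13 on X. Ratios per chromosome are not given over all peaks. The share of sites with H3K36me3 within 5 kb varied more among the autosomes, from 12.6% on chromosome 13 to 38.3% on chromosome 17 in QSCs.

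The median distance from a site to the next member was 45.1 kb, and 133 sites had another within 2 kb. With gaps of at most 20 kb, 1948 sites (25.9%) fell into 835 runs of at least 2, and the other 5573 stood alone. A young QSC H3K4me3 peak of any kind lay within 20 kb of 50.4% of the sites. The spacing of all young QSC peaks among themselves is not given for comparison. The longest run, chr9:44112938-44226821, held 10 of its 11 H3K4me3 peaks as members, with median widths of 1750 bp in young QSCs, 2240 bp in ASCs and 1780 bp in old QSCs, and all 10 had H3K36me3 within 5 kb in ASCs and 9 in QSCs. The run chr19:8787052-8861356 held 8 members of 8 peaks, with medians of 1780, 2777 and 2015 bp, and 8 had H3K36me3 near in ASCs and 5 in QSCs. The run chr4:155134155-155244586 held 8 members of 12 peaks, with medians of 2110, 2652 and 2235 bp at the 7 called once, 6 with H3K36me3 near in ASCs and 3 in QSCs.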

How the data were processed

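ChIP DNA was sequenced on a Genome Analyzer, and per the submitters' processing notes the reads were placed on mm9 with Bowtie. The authors deposited a peak list for each ChIP library called by MACS against input, which gives each peak's position and its score. The score is on the scale of -10 times log10 of the p-value. Parameters, read numbers and the input used are not given in the sources used here, and the 3 input libraries were not analysed.

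Overlaps (at least 1 bp), distances, widths and coverage were computed in Python 3.11.15 with numpy 2.4.6, pandas 2.3.3 and scipy 1.17.1, and the code was tested on simulated data and against bedtools 2.31.1. Width ratios used sites with 1 peak in each list. The members, compared sets and lists were chosen with earlier results of these data known. Regions are named as the 3 with the largest and smallest width ratios or H3K36me3 coverage changes, the longest runs and the peaks next to each limit, not all of which are printed. Alternatives were other limits of score, width, overlap and distance, merged peaks, a lower fold limit (25% over 1) and H3K36me3 lists of equal length.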

Additional observations from a re-analysis of the deposited data

How the results depend on the processing

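No paired analysis was possible because each state and mark had 1 library. Of 78 alternatives computed for 10 results, 46 stayed within the interval of the value reported (or within 1.5 times of a count), 30 moved beyond it and 2 changed sides of 50%.

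The number of sites was 4866 with a score limit of 2000 and 4804 with a width limit of 2000 bp. The share at least 1.5-fold wider in ASCs than in young QSCs was 20.2% with the 2000 bp limit, 22.1% with peaks less than 1 kb apart merged and 20.9% with widths of all counterparts summed, and a fold limit of 25% over 1 gave 46.1%. The share wider in old than in young QSCs was 1.59%, 1.85% and 2.53% in these 3 settings and 8.26% with the lower fold limit. The share narrower in old QSCs than in ASCs was 12.7% with no H3K27me3 within 5 kb, 15.3% with merged peaks, 13.5% with summed widths and 35.3% with the lower fold limit.

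H3K36me3 within 5 kb in QSCs was 24.5% with a score limit of 2000, 24.1% with a width limit of 2000 bp, 27.7% with no width limit and 24.3% with no H3K27me3 within 5 kb. In ASCs it was 42.3% with a score limit of 500 and 31.0% with lists of equal length. With compared lists limited to scores of at least 100 the shares were 14.4% in QSCs and 33.1% in ASCs, within 1 kb 8.75% and 13.6%, and within 20 kb 54.2% and 75.1%. ASCs had the higher share in each of these pairs.

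The following were added after the data had been seen. The facing edge went farther in ASCs at 77.5% when the ASC list gave the side. In old QSCs this share was 52.3% with the ASC list and 52.5% with a reach of 50 kb, on the other side of 50% from the 49.4% reported. The cause was not tested. The overlap with H3K36me3 was 1.20% in QSCs and 2.23% in ASCs at scores of at least 100, and 2.14% in ASCs with lists of equal length. The unknown depth of each library limits every comparison between states.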

Other observations

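The X chromosome held few constitutive sites. It carried 100 of the 7521, 1.33% (1.09% to 1.61%), against 685 of all 24701 young QSC H3K4me3 peaks, 2.77% (2.58% to 2.99%). Of the peaks on X, 14.6% (12.2% to 17.4%) were members. Among all these peaks, X held 1.15% of those scoring 1000 or more and 3.98% of those scoring less. The compared set with scores under 1000 had 7.50% of its sites on X. The score was part of the rule, and its part in the low number of members on X was not tested. Of the 100 X-linked members, 5.00% had H3K36me3 within 5 kb in QSCs and 11.0% in ASCs, below the members' values on every autosome. Their ASC over QSC width ratio had a median of 1.13. These shares rest on few sites. The share over all young QSC peaks on X is not given, so they cannot be called particular to the members. All mice were male per the labels, so X was present in 1 copy, and the part this had in the scores was not tested. The Y chromosome had 7 young QSC peaks and no member.

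At the 284 sites where an H3K36me3 peak of young QSCs overlapped the H3K4me3 peak itself, the ASC over QSC ratio had a median of 1.11, against 1.23 at sites with it on 1 side within 20 kb, at those with it on both sides and at those with none in this reach. Old QSC over young QSC was 1.02 at the overlapped sites. The lower ASC over QSC ratio at overlapped sites was not particular to the members. Over all young QSC H3K4me3 peaks it was 0.955 at overlapped sites. It was 1.12 with the mark on 1 side, 1.16 on both sides and 1.08 with none.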
